A study of Mus musculus with 6 samples.

Results

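Complement genes were followed across 6 RNA sequencing libraries of whole mouse brain close to birth, at E18.5. The 10 genes were chosen by name, as the annotated rows for C1qa, C1qb, C1qc, C3, C4b, C3ar1, C5ar1, Itgam, Itgb2 and C1ql1, out of 55359 annotated genes. Each gene stood on 1 row with its own Ensembl identifier in every library. Of the libraries, 3 came from wild-type (WT) embryos and 3 from PME-1 S156A knock-in embryos, and each was made from 3 brains combined in 1 tube. PME-1, the product of Ppme1, is the methylesterase of protein phosphatase 2A, and S156A replaces its active-site serine by alanine. The labels give no strain, sex or zygosity, and describe no further allele or treatment in either group. The spread between libraries is therefore a spread between pools, and single embryos were not measured.

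Complement is a cascade of serum and tissue proteins that tags cells and debris for removal. C1q, built from the chains of C1qa, C1qb and C1qc, starts the classical route, which cleaves C4 and C2 and then C3. Fragments of C3 are read by complement receptor 3, the integrin pair of Itgam and Itgb2, and by the peptide receptor C3ar1. In the brain, C1q and complement receptor 3 are made mainly by microglia, and the cascade is known for its part in the pruning of synapses. C1ql1 is not a cascade component. It is a secreted neuronal protein with a C1q-like domain that acts at synapses, climbing fibre synapses of the cerebellum among them.

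The C1q chains, C4b, C3ar1, Itgam and Itgb2 had higher values in all 3 S156A libraries than in any WT library, by 2.81 to 4.44 times on mean TPM (transcript abundance scaled to transcript length and to the library's total). C5ar1 was also higher in every S156A library, by 1.82 times. C3 followed a different order of libraries, and C1ql1 had a lower mean in S156A. None of the 10 was called by limma, the linear model fitted over 18893 genes, at an adjusted p under 0.05, and 7 were at an unadjusted p under 0.05, all with higher values in S156A. Over all genes tested 0.159% were called in either direction. An unadjusted p under 0.05 with S156A higher was met by 8.41% of the genes tested. The groups did not overlap, with S156A higher, for 8 of the 10 genes, against 13.7% of all genes tested. The median log2 difference of the 10 genes was 1.22 and that of all genes tested was 0.09. All 10 passed the filter of a mean of at least 1 TPM over the 6 libraries, but C4b, C5ar1, Itgam and Itgb2 averaged under 1 TPM in WT and passed through their S156A values. Those genes are in the counts and the median above, and the 10 genes were chosen with earlier results of these data known. The shares over all genes tested are therefore background and no test of the 10 genes. Log2 differences of the genes at low TPM depend on the pseudocount added before the logarithm, which is 1 here. With pseudocounts of 5 and 0.1 they were 0.45 and 2.01 for C4b, 0.62 and 1.71 for C3ar1, 0.18 and 0.87 for C5ar1, 0.53 and 1.87 for Itgam, and 0.30 and 1.70 for Itgb2, so the order of the genes by size is not fixed.

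**Figure D1:**
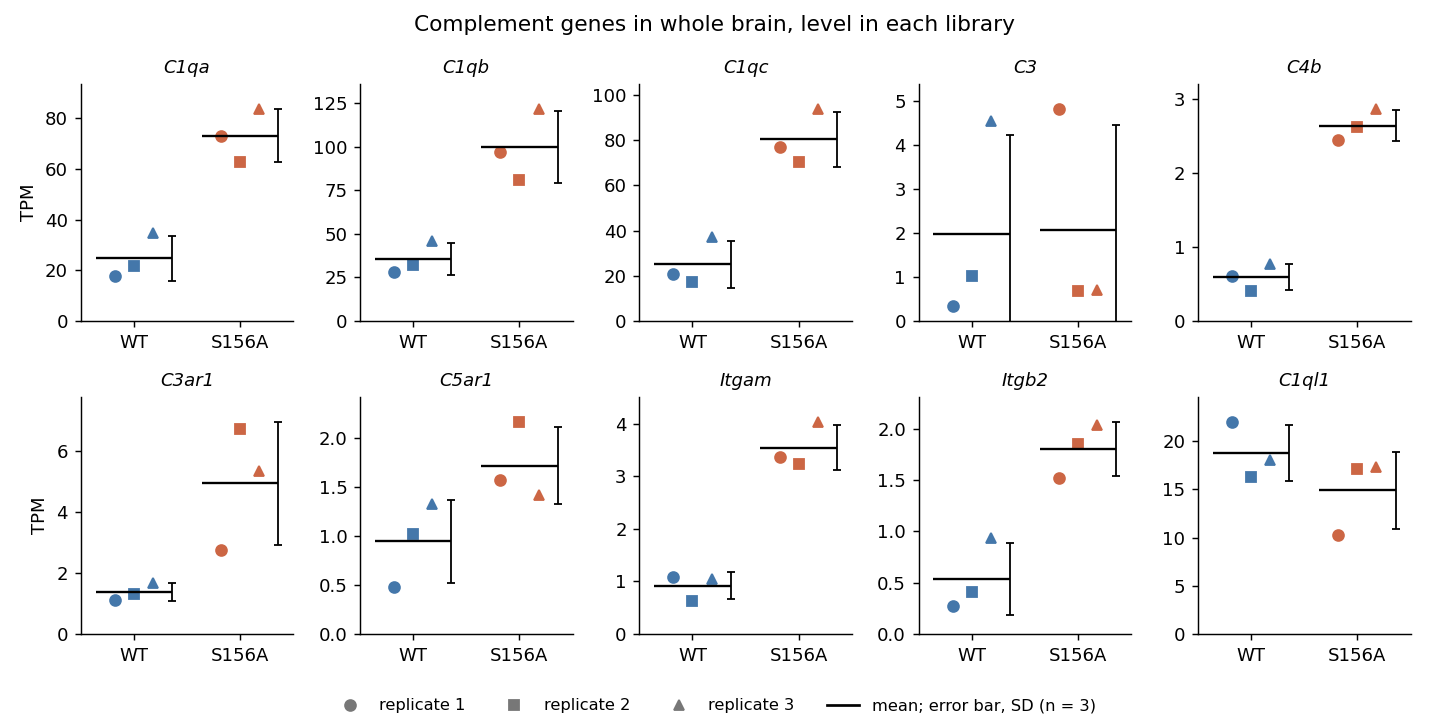
TPM of the 10 complement genes in each library (y axis, linear from 0), with WT and S156A on the x axis, 1 point per library and the mean and SD of 3 libraries; the SD bars of C3 pass below 0 and are cut off there. For 8 genes every S156A point lies above every WT point, while the 2 high points of C3 are WT replicate 3 and S156A replicate 1.

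The 3 chain genes of C1q lie side by side on chromosome 4 and on the minus strand. In the files' coordinates C1qb (ENSMUSG00000036905.9) spans 136607440 to 136613498, C1qc (ENSMUSG00000036896.6) 136617115 to 136620376 and C1qa (ENSMUSG00000036887.6) 136623228 to 136626114, a cluster of 18675 bp. The gaps are 3616 bp between C1qb and C1qc and 2851 bp between C1qc and C1qa. Upstream sequence is shown for C1qb and C1qc, both higher in every S156A library than in any WT library, and for C3, whose groups overlapped. The sequences are RefSeq windows on GRCm38.p6, printed up to the first annotated start, and capitals mark GAGGAA or GGAAGT on either strand, core letters bound by ETS factors such as the myeloid factor encoded by Spi1. C1qb is chr4:136886201-136886450 (minus strand), C1qc is chr4:136893066-136893164 (minus strand) and C3 is chr17:57228137-57228386 (minus strand).
C1qb: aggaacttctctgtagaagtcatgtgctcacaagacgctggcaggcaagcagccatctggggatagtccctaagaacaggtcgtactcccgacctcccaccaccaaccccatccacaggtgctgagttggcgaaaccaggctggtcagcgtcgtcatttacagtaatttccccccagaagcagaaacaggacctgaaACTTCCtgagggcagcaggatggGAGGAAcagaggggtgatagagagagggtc
C1qc: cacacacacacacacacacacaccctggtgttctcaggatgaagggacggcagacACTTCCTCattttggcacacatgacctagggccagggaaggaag
C3: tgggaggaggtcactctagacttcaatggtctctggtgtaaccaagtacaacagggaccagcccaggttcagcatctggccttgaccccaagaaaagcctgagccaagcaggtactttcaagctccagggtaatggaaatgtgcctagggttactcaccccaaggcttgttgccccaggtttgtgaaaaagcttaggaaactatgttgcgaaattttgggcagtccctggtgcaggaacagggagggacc

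Each motif occurred once in the printed stretch of C1qb. In C1qc the 2 motifs overlap in the single run ACTTCCTC, and the C3 stretch held neither. The table had windows for 6 of the 10 genes, C3ar1, C5ar1 and Itgam being the others. Over whole windows of 300 bases, GAGGAA (or TTCCTC) was found for C1qb, C1qc and Itgam, and in 28.3% of all 32851 windows. GGAAGT (or ACTTCC) was found for C1qb, C1qc and C5ar1, and in 23.8% of all windows. The windows of C3 and C3ar1 held neither, and C3ar1, like C1qb and C1qc, was higher in every S156A library than in any WT library. These letters were chosen with the sequences in view and describe the windows only.

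C1qa measured 17.8, 21.9 and 34.7 TPM in the WT libraries against 72.9, 62.9 and 83.7 TPM in the S156A libraries, each in the order of replicates 1 to 3, as are all values by library. The lowest S156A library stood well above the highest WT library. The log2 difference was 1.57 (SE 0.24; limma adjusted p = 0.070), with a limma 95% interval of 1.00 to 2.14. C1qb measured 28.2, 32.3 and 45.9 TPM in the WT libraries against 97.1, 80.7 and 121 TPM in the S156A libraries. Its log2 difference was 1.48 (SE 0.22; limma adjusted p = 0.065). C1qc measured 20.9, 17.4 and 37.0 TPM in the WT libraries against 76.9, 70.5 and 93.8 TPM in the S156A libraries. Its log2 difference was 1.70 (SE 0.27; limma adjusted p = 0.072). In each chain WT replicate 3 was the highest WT library and S156A replicate 3 the highest S156A library. The 3 values missed the threshold narrowly. Without WT replicate 3 they passed it (limma adjusted p = 0.036 for C1qa, 0.045 for C1qb and 0.033 for C1qc), and without any other library they did not (limma adjusted p of 0.135 to 0.328). An exact permutation test of 3 against 3 libraries gave p = 0.1 for each chain, two-sided, the smallest it can give.

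The chains kept close proportions while their sum averaged 85.4 ± 28.0 TPM in WT against 253 ± 42.8 TPM in S156A (SD, n = 3 each). C1qb stood at 1.28 to 1.59 times C1qa over the 6 libraries, and C1qc at 0.79 to 1.17 times. These ratios compare levels per transcript length. The lowest C1qc ratio came from WT replicate 2, where the annotated row gave 17.4 TPM and the locus assembled from that library's own reads gave 30.5 TPM. With assembled loci in place of annotated rows, also a check added with the data in view, the log2 differences were 1.53, 1.48 and 1.51 for C1qa, C1qb and C1qc (limma adjusted p = 0.072, 0.064 and 0.053). Mean read depth over the chains ran from 14.2 reads per base for C1qc in WT replicate 1 to 175 for C1qb in S156A replicate 3. The ratio of depth to FPKM for C1qc equalled that of C1qa in WT replicate 2, at 3.31. In every other library it was lower than that of C1qa, at 2.06 to 2.58. The C1qc row of WT replicate 2 thus differed from the others in this respect, and the reason was not tested.

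The genes next to the cluster had another pattern. Within 200000 bp of it the tested genes were the Eph receptor genes Epha8 and Ephb2 and the zinc finger gene Zbtb40. Epha8 measured 30.5, 30.1 and 21.8 TPM in the WT libraries against 15.9, 19.2 and 15.8 TPM in the S156A libraries, lower in every S156A library (log2 difference -0.66, SE 0.17; limma adjusted p = 0.20). Ephb2 and Zbtb40 had log2 differences of -0.07 (SE 0.11) and -0.09 (SE 0.32), and their groups overlapped.

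C4b (ENSMUSG00000073418.5), whose product C4 is cleaved after C1q binds, lies on chromosome 17 at 34947354 to 34962856. It measured 0.61, 0.41 and 0.77 TPM in the WT libraries against 2.44, 2.62 and 2.87 TPM in the S156A libraries. All WT libraries were below 1 TPM and the S156A libraries lay close together above 2 TPM. S156A differed from WT by a log2 value of 1.20 (SE 0.25; limma adjusted p = 0.13). C4a, its near-identical neighbour, measured 1.15, 1.17 and 3.97 TPM in the WT libraries against 2.75, 4.20 and 2.25 TPM in the S156A libraries, with overlapping groups. Reads shared between C4a and C4b could be assigned to either, so the values of both genes are uncertain. C4b was at 0.36 ± 0.17 of C4a in WT and 0.93 ± 0.33 in S156A (SD, n = 3 each), and mean depth over C4b was only 0.45 to 3.81 reads per base.

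C3 (ENSMUSG00000024164.16), the central component, lies on chromosome 17 at 57510970 to 57535136. It measured 0.35, 1.03 and 4.53 TPM in the WT libraries against 4.81, 0.67 and 0.71 TPM in the S156A libraries. WT replicate 3 and S156A replicate 1 were high and the other 4 libraries low, so the groups overlapped fully. The log2 difference was 0.04 (SE 0.67; limma adjusted p = 0.99), and its interval of -1.54 to 1.63 is wide. Its sign turned with trimmed mean scaling, with quantile normalization and when WT replicate 1, WT replicate 2 or S156A replicate 1 was left out. The same 2 libraries held the most RNA of skeletal muscle and of collagen-making cells. Acta1, skeletal muscle actin, measured 8.22, 333 and 2472 TPM in the WT libraries against 2611, 17.7 and 18.7 TPM in the S156A libraries. Col1a1, a collagen of fibroblasts and bone, measured 53.0, 216 and 934 TPM in the WT libraries against 1318, 140 and 148 TPM in the S156A libraries. Summed over the 7 fibroblast markers the level was 170 to 2101 TPM in WT and 396 to 2593 TPM in S156A, and over the 6 muscle markers 12.0 to 5721 TPM and 41.2 to 6454 TPM, with none of these 13 genes at 0 throughout. C1s1, the protease that cleaves C4, was highest in the same 2 libraries, with 1.45, 1.00 and 6.93 TPM in the WT libraries against 5.96, 0.97 and 0.80 TPM in the S156A libraries. Cfd, the alternative-pathway protease made by fat cells, was at 44.6 TPM in WT replicate 3 and 19.2 TPM in S156A replicate 1, and at 0 to 2.29 TPM elsewhere. The part of muscle and connective tissue RNA in these values was not tested.

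**Figure D2:**
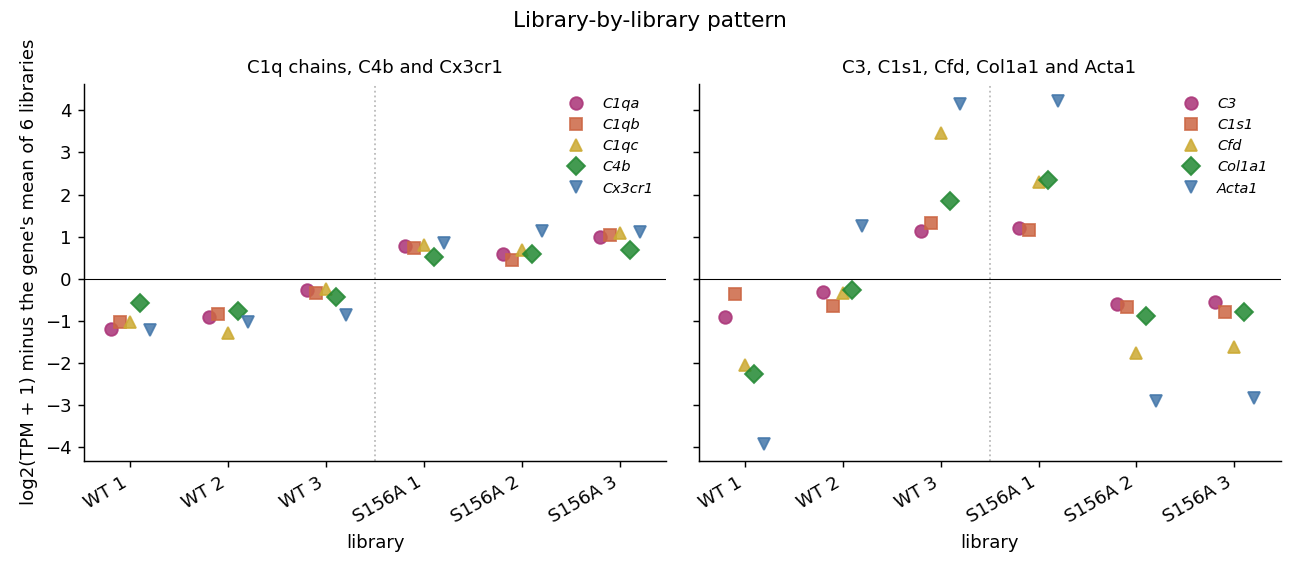
Log2(TPM + 1) of each gene minus its mean over the 6 libraries (y axis) by library (x axis), for the C1q chains, C4b and the microglial gene Cx3cr1 on the left and for C3, C1s1, Cfd, Col1a1 and Acta1 on the right. Genes on the left lie below 0 in every WT library and above 0 in every S156A library, whereas genes on the right are highest in WT replicate 3 and S156A replicate 1.

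When WT replicate 3 and S156A replicate 1 were both left out (a check added with the data in view), the C1q chains had log2 differences of 1.83, 1.68 and 2.04 (C1qa, C1qb and C1qc; limma adjusted p = 0.067, 0.087 and 0.067), against 1.57, 1.48 and 1.70 with all 6 libraries. C4b was at 1.31, Itgam at 1.33, Itgb2 at 1.14, C3ar1 at 1.67 and C5ar1 at 0.67 in that fit, and C3 at 0.03. With 2 libraries a group, none of the 10 genes was called, and 0 genes were called over the whole table (3141 at an unadjusted p under 0.05).

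Among the receptors, C3ar1 (ENSMUSG00000040552.9), which binds the peptide released from C3, lies on chromosome 6 at 122824097 to 122833120. It measured 1.10, 1.31 and 1.69 TPM in the WT libraries against 2.75, 6.72 and 5.35 TPM in the S156A libraries. S156A replicate 1 was the lowest of its group and still above every WT library. S156A differed from WT by a log2 value of 1.27 (SE 0.33; limma adjusted p = 0.19). C5ar1 (ENSMUSG00000049130.7), the receptor of the peptide released from C5, lies on chromosome 7 at 15980668 to 15993465. It measured 0.48, 1.02 and 1.33 TPM in the WT libraries against 1.57, 2.16 and 1.42 TPM in the S156A libraries, where the groups nearly touched. The log2 difference was 0.50 (SE 0.29; limma adjusted p = 0.50; interval -0.19 to 1.19). The gene of C5 itself, Hc, was at or below 0.14 TPM in all 6 libraries.

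Itgam (ENSMUSG00000030786.19), the alpha chain of complement receptor 3, lies on chromosome 7 at 127661812 to 127717663, 27.6 Mb from Ppme1. It measured 1.08, 0.62 and 1.06 TPM in the WT libraries against 3.36, 3.24 and 4.03 TPM in the S156A libraries. The groups were far apart for so low a level. S156A differed from WT by a log2 value of 1.25 (SE 0.25; limma adjusted p = 0.11). The annotated row Gm49368 overlaps Itgam on the same strand over 55809 bp, so reads could be split between them. Gm49368 measured 0.64, 0.37 and 1.03 TPM in the WT libraries against 2.56, 2.45 and 2.55 TPM in the S156A libraries, the same direction as Itgam. Their sum had a log2 difference of 1.46 (limma adjusted p = 0.082, added with the data in view). Itgb2 (ENSMUSG00000000290.14), the beta chain shared by the leukocyte integrins, lies on chromosome 10 at 77366086 to 77401542. It measured 0.27, 0.41 and 0.93 TPM in the WT libraries against 1.52, 1.85 and 2.04 TPM in the S156A libraries. The log2 difference was 0.88 (SE 0.29; limma adjusted p = 0.26), and mean depth over the gene was 0.29 reads per base in its lowest library. Itgax, the alpha chain of the related complement receptor 4, was named after its values were seen. The WT libraries listed it at 0, 0.025 and 0.044 TPM against 1.79, 0.93 and 1.33 TPM in the S156A libraries, too low for the filter. In the fit with no filter its log2 difference was 1.18 (SE 0.17; limma adjusted p = 0.19).

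**Figure D3:**
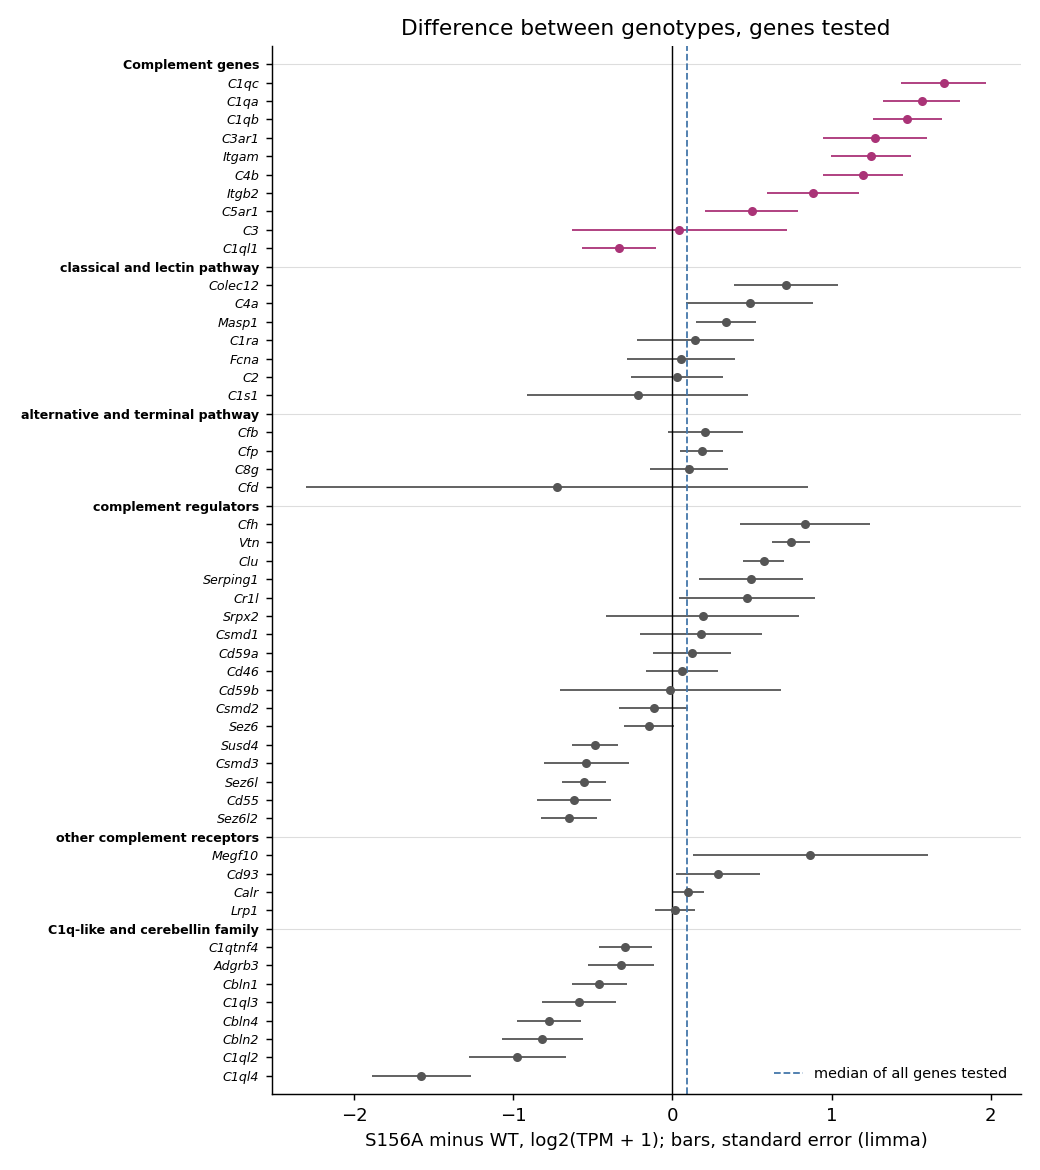
Log2 difference of S156A minus WT on the log2(TPM + 1) scale (x axis) with its limma standard error, for the 10 complement genes and the 40 tested genes of the other pathway lists (y axis, grouped by list); the dashed line is the median of all genes tested. With the pseudocount of 1 plotted here, C1qc, C1qa and C1qb have the highest values and C1ql4 the lowest, at -1.58; with 0.1, C4b and Itgam lie above C1qc.

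Markers of microglia moved with the C1q and receptor genes. Of 14 microglia markers that exclude the 10 genes, 13 were tested, all 13 had higher values in S156A, and 5 were called by limma, among them Cx3cr1, Fcrls, Trem2 and Laptm5. Their summed level was 110 to 162 TPM in WT and 314 to 336 TPM in S156A, with no marker at 0 in every library. The microglial genes P2ry12 and Siglech had log2 differences of 0.19 and 0.08, with overlapping groups. Groups also overlapped for Tmem119 and Spi1, at log2 differences of 0.78 and 1.55. Tmem119 measured 1.64, 4.50 and 28.3 TPM in the WT libraries against 41.6, 6.36 and 5.95 TPM in the S156A libraries. It was thus highest in WT replicate 3 and S156A replicate 1, as C3 was. Border macrophage markers were at 36.6 to 125 TPM over 8 genes in WT, summed, against 87.6 to 178 TPM in S156A, and 0 of 8 were called. All 8 had higher values in S156A (median log2 difference 0.66), and the groups did not overlap for Mrc1, the 1 marker at an unadjusted p under 0.05. Ms4a7, counted among the 8, had a WT mean of only 0.30 TPM. It met the filter through its S156A libraries (mean 2.27 TPM), and its log2 difference depends on the pseudocount. Neutrophil and monocyte markers summed to 4.50 to 9.01 TPM over 8 genes in WT and 6.90 to 13.6 TPM in S156A. Lymphocyte markers summed to no more than 1.60 TPM over 6 genes in any library, with Ncr1 at 0 throughout. In whole brain RNA, more cells of a type and more RNA per cell cannot be told apart, and the part of either in the complement values was not tested.

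To ask whether a complement gene differed by more or less than microglial RNA as a whole, the mean log2(TPM + 1) of the 14 markers was subtracted from each gene in each library. That mean was itself 1.10 higher in S156A. For C1qa the remaining difference was 0.47, for C1qb 0.37 and for C1qc 0.60. The markers themselves were spread, with log2 differences from 0.08 for Siglech to 2.07 for Cx3cr1 over the 13 tested. Those of Cx3cr1, Trem2 (1.94) and Fcrls (1.74) were above that of C1qc (1.70), and those of the other tested markers were below it. The remaining differences thus compare the chains with the marker mean only and do not set them apart from every marker. For C4b it was 0.10, for C3ar1 0.17 and for Itgam 0.15, and their groups overlapped. For C5ar1 it was -0.60, for Itgb2 -0.22, for C3 -1.06 and for C1ql1 -1.44. By an exact permutation test, 3 against 3 and two-sided, C1qc (higher) and C5ar1, Itgb2 and C1ql1 (lower) reached the smallest possible p of 0.1. That p is 0.25 when adjusted by Benjamini-Hochberg over the 10 genes. For C1qc the exact permutation p was 0.2 with a pseudocount of 0.1, with quantile normalization and with the median of the markers. Over all alternatives the remaining difference ran from 0.32 to 0.62 for C1qa, 0.22 to 0.57 for C1qb and 0.41 to 0.80 for C1qc. The 0.41 came from leaving out WT replicate 2. These ranges overlap, so C1qc is not set apart from the other chains. C1ql1 itself had a log2 difference of only -0.34, with overlapping groups. Because the marker mean was 1.10 higher in S156A, a gene with no difference of its own would also come out lower. The value of C1ql1 here therefore comes largely from the markers. With Tmem119 and Spi1 taken out of the markers, C1qc was at 0.61 (exact permutation p = 0.2) and C1ql1 at -1.43 (exact permutation p = 0.1). C5ar1 was then at -0.59 (exact permutation p = 0.1) and Itgb2 at -0.20 (exact permutation p = 0.4). The pseudocount of 1 compresses the differences of genes near or below 1 TPM against the more abundant markers. The signs for C4b, C3ar1, C5ar1, Itgam and Itgb2 are therefore not read as a direction relative to the markers. With a pseudocount of 0.1 Itgb2 was at 0.45, C4b at 0.76 and C5ar1 at -0.38. The sign turned for C4b, C3ar1 and Itgam with FPKM or with a pseudocount of 5.

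**Figure D4:**
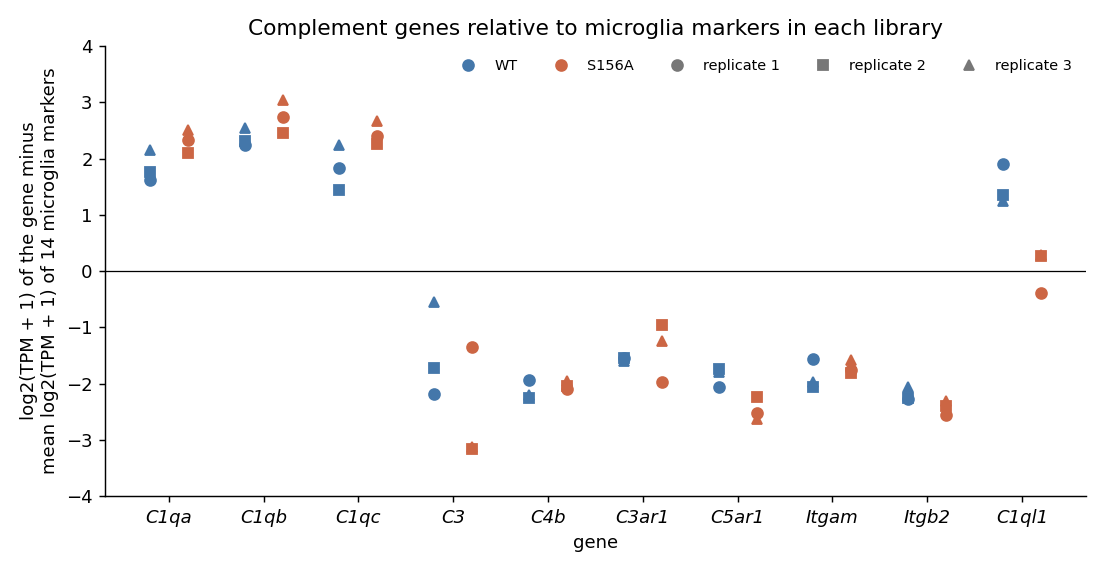
Log2(TPM + 1) of each complement gene minus the mean of 14 microglia markers in the same library (y axis), by gene (x axis), 1 point per library, coloured by genotype and shaped by replicate. With the pseudocount of 1 plotted here, C1qc is higher in S156A by 0.60 without overlap. C5ar1, Itgb2 and C1ql1 are lower without overlap (differences of -0.60, -0.22 and -1.44). The marker mean itself was 1.10 higher in S156A, which enters every difference. C1qa, C1qb, C3, C4b, C3ar1 and Itgam overlap between genotypes.

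By Pearson correlation of log2(TPM + 1) over the 6 libraries, genes most like the mean of the C1q chains included Pik3ap1 (0.997), an adaptor of phosphoinositide kinase in immune cells, Cyp4f16 (0.997), the secreted signalling gene Wnt5a (0.997) and Rnf122 (0.993). Because the libraries fall into 2 genotypes, any gene with a clear difference between them scores high. Pik3ap1 measured 0.77, 0.82 and 1.54 TPM in the WT libraries against 3.95, 3.21 and 4.32 TPM in the S156A libraries.

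The rest of the cascade was mostly at low levels. Of 15 other genes of the classical and lectin routes 7 were tested and 0 were called (0 at an unadjusted p under 0.05), with a median log2 difference of 0.14. Masp1, a protease of the lectin route, was the most abundant, at 37.3 ± 7.56 TPM in WT against 47.2 ± 8.01 TPM in S156A (SD, n = 3 each). The scavenger collectin Colec12 was at 6.79 ± 3.34 and 11.2 ± 2.57 TPM, and Fcna, a ficolin, at 3.18 ± 1.37 and 3.23 ± 0.96 TPM. C2, which forms the classical convertase with C4, had a log2 difference of 0.03 (SE 0.29). Of 10 genes of the alternative and terminal routes 4 were tested and 0 were called (0 at an unadjusted p under 0.05). Cfp, properdin, was at 17.0 ± 1.07 and 19.5 ± 1.45 TPM, Cfb at 2.54 ± 0.23 and 3.11 ± 0.59 TPM, and C8g at 4.91 ± 0.43 and 5.47 ± 1.52 TPM. C9, the pore-forming component, was listed at 0 in all 6 libraries.

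Regulators were mixed in direction. Of 20 genes 17 were tested and 0 were called by limma, with 2 higher and 4 lower in S156A at an unadjusted p under 0.05. An unadjusted p under 0.05 with S156A lower was met by 5.50% of all genes tested, and with S156A higher by 8.41%. For 17 genes, 2 higher is close to the latter share. Vtn, vitronectin, which blocks the terminal pore, measured 68.3, 73.3 and 60.7 TPM in the WT libraries against 107, 108 and 127 TPM in the S156A libraries (log2 difference 0.75, SE 0.12; limma adjusted p = 0.076). Clu, clusterin, measured 113, 119 and 102 TPM in the WT libraries against 146, 165 and 189 TPM in the S156A libraries (log2 difference 0.57, SE 0.13; limma adjusted p = 0.14). Both had higher values in every S156A library. The neuronal genes Sez6l and Sez6l2, relatives of Sez6 with complement control domains, pointed the other way. Sez6l was at 105 ± 12.7 and 71.1 ± 8.41 TPM and Sez6l2 at 168 ± 34.4 and 106 ± 12.2 TPM (SD, n = 3 each; limma adjusted p = 0.18 and 0.20). Sez6 itself had a log2 difference of -0.14 (SE 0.16). Susd4 and Cd55, which restrain convertases, also met the unadjusted threshold, at log2 differences of -0.49 and -0.62.

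Among 8 other receptors and partners 4 were tested and 0 were called (0 at an unadjusted p under 0.05). Of the untested genes, Itgax is given above, C5ar2 had overlapping groups and Vsig4 was at 0 throughout. Cr2, complement receptor 2, named after its values were seen, measured 0.19, 0.19 and 0.22 TPM in the WT libraries against 2.13, 0.53 and 1.51 TPM in the S156A libraries. In the fit with no filter its log2 difference was 0.93 (SE 0.28; limma adjusted p = 0.41). Calr, calreticulin, which binds C1q at cell surfaces, was at 399 ± 15.4 and 427 ± 17.9 TPM, and Lrp1, an uptake receptor, at 104 ± 5.97 and 106 ± 14.1 TPM (SD, n = 3 each). Cd93, a receptor of endothelial and myeloid cells, had a log2 difference of 0.29 (SE 0.26), and Megf10, an engulfment receptor of astrocytes, 0.87 (SE 0.74).

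C1ql1 (ENSMUSG00000045532.6), on chromosome 11 at 102830090 to 102837514, measured 22.0, 16.3 and 18.1 TPM in the WT libraries against 10.3, 17.1 and 17.4 TPM in the S156A libraries. S156A replicate 1 was the lowest library and the other 2 S156A libraries lay within the WT range. S156A differed from WT by a log2 value of -0.34 (SE 0.23; limma adjusted p = 0.56), with an interval of -0.88 to 0.21. Without S156A replicate 1 it was -0.11.

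The relatives of C1ql1 also had lower means in S156A. Of 9 genes of the C1q-like and cerebellin list, which holds secreted synapse organizers and the C1q-like receptor gene Adgrb3, 8 were tested. All 8 had lower values in S156A (median log2 difference -0.68), and 0 were called by limma. An unadjusted p under 0.05 was met by 6 of them, against 5.50% of all genes tested with S156A lower. Groups did not overlap for 5 of the 8, against 7.05% of all genes tested with S156A lower. This list too was chosen with earlier results of these data known, so the shares are background only. C1ql4 measured 7.39, 13.1 and 7.70 TPM in the WT libraries against 1.58, 2.40 and 3.44 TPM in the S156A libraries, every S156A library being below every WT library. Its log2 difference was -1.58 (SE 0.31; limma adjusted p = 0.11). C1ql2 was at 11.5 ± 3.11 and 5.48 ± 2.08 TPM, Cbln2 at 48.6 ± 9.37 and 27.7 ± 8.67 TPM and Cbln4 at 23.7 ± 3.56 and 13.5 ± 2.88 TPM (SD, n = 3 each). Cbln1, the cerebellar granule cell ligand, was at 67.5 ± 10.7 and 48.9 ± 8.74 TPM with overlapping groups. C1qtnf4, the most abundant of the list, was at 271 ± 21.4 and 224 ± 49.9 TPM, and Adgrb3 at 43.3 ± 8.62 and 34.5 ± 7.14 TPM, both with overlapping groups.

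**Figure D5:**
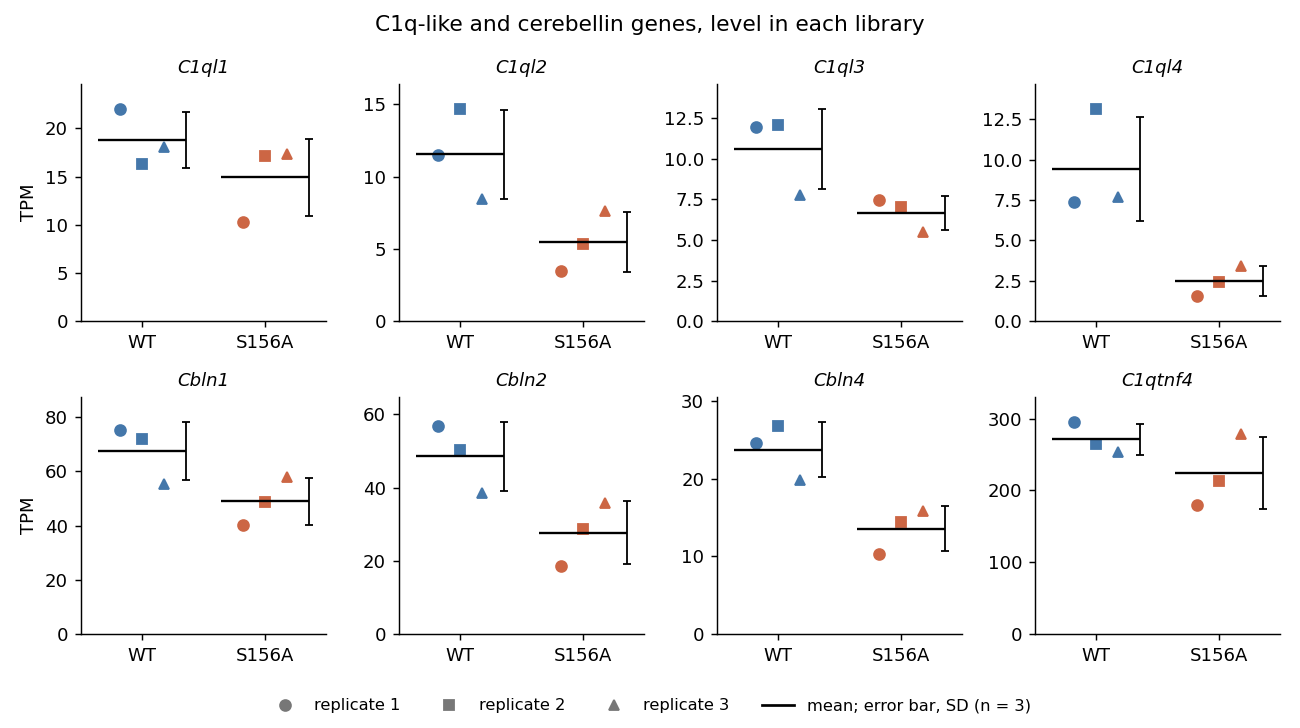
TPM of C1ql1 and 7 related genes in each library (y axis, linear from 0) for WT and S156A (x axis), with the mean and SD of 3 libraries. For C1ql2, C1ql3, C1ql4, Cbln2 and Cbln4 every S156A point lies below every WT point, and for C1ql1 they overlap.

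General neuron markers moved in the same direction as the C1q-like genes. Of 6 neuron markers 5 had lower values in S156A, 4 at an unadjusted p under 0.05 and 0 called. That threshold with S156A lower was met by 5.50% of all genes tested. Map2 went the other way, with a log2 difference of 0.32. The summed level of the 6 neuron markers was 3310 to 4599 TPM in WT and 2440 to 3512 TPM in S156A, with none at 0. Oligodendrocyte precursors also transcribe C1ql1, and the 8 markers of that lineage summed to 233 to 259 TPM in WT and 237 to 264 TPM in S156A, with none at 0 and Gpr17 called higher. Whether neuron content has a part in the C1q-like values was not tested.

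The estimated depth was 3.15 to 4.14 aligned gigabases a library, and 18191 to 19270 annotated genes reached 1 TPM. Of all genes tested 16 were called higher and 14 lower. This split was 17 higher and 58 lower with trimmed mean scaling, and 16 higher and 36 lower with quantile normalization. Depth in reads per gene is unknown, so no counting interval can be given, and differences of the genes below 1 TPM in WT rest on few reads. The libraries also differed in choroid plexus markers, which summed to 1104 to 1502 TPM over 6 genes in WT and 2290 to 3418 TPM in S156A, and in astrocyte markers, at 436 to 494 TPM over 8 genes and 507 to 673 TPM. The astrocyte markers were mixed in direction, 5 being higher and 3 lower in S156A. Gfap and Gja1 had log2 differences of 2.26 and 0.76, while Aldoc was lower in every S156A library, at -0.41. Liver markers, a check for serum-protein sources of complement, summed to at most 3.96 TPM over 6 genes, with Serpina1a at 0 in every library.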

How the data were processed

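Total RNA was extracted from pooled brains and made into directional libraries, per the labels' protocols. The deposited TPM and FPKM values came from StringTie 2.1.5 gene abundance tables, after Trim Galore 0.6.6 and HISAT2 2.2.1, per the submitters' processing notes. For strand settings and annotation release, the sources used here give nothing. The notes name hg38, but the rows are mouse genes. Only 3.17% of 38081 gene starts lay within 1000 bp of their GRCm38 position, so coordinates are as in the files (GRCm39 inferred), and only the printed sequences use GRCm38.p6. Assembled loci add up to the full TPM total and annotated rows to 93.1% to 95.8% of it. Annotated rows sharing an identifier were summed.

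Log2(TPM + 1) of genes averaging 1 TPM or more was fitted with limma 3.58.1 in R 4.3.3 (no covariate, eBayes with trend, two-sided, Benjamini-Hochberg over 18893 genes, called under 0.05). Fold changes on this scale understate low genes. Permutation tests used scipy 1.17.1. Depth was estimated from the commonest ratio of deposited coverage to FPKM, shared by 13.2% to 13.8% of rows with an FPKM above 10.

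The 10 genes and the lists (5 pathway, 11 marker) were chosen with earlier results of these data known. From each pathway list, up to 3 genes with the highest mean TPM and up to 3 with the smallest p were named, plus the 5 genes most like C1q by correlation; others were named after their values were seen. Some genes that the rule names are left out of the text. Alternatives were FPKM, pseudocounts of 0.1 and 5, other filters and scalings, other eBayes settings, library weights, a replicate block and each library left out.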

Additional observations from a re-analysis of the deposited data

How the results depend on the processing

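The count of called genes depended strongly on the settings. In place of 30 genes, 0 were called without a filter (3364 at an unadjusted p under 0.05), 75 with trimmed mean scaling (17 higher, 58 lower), 52 with quantile normalization (16 higher, 36 lower), 16 without the eBayes trend, 309 with library weights, and 0 to 70 with 1 library left out. With WT replicate 3 and S156A replicate 1 both left out, 0 were called. Of the 10 complement genes, 5 were called with library weights, all higher in S156A, 3 without WT replicate 3, and 0 in all other alternatives run (range without 1 library, 0 to 3). Of the other pathway genes, 1 was called with library weights, and 0 in all others. The cause of these shifts was not tested.

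With library weights the log2 differences were 1.74 for C1qa, 1.66 for C1qb, 1.98 for C1qc, 1.29 for C4b and 1.37 for Itgam (limma adjusted p = 0.018, 0.018, 0.020, 0.049 and 0.045). With 1 library left out they ran from 1.36 to 1.83 for C1qa, 1.32 to 1.67 for C1qb, 1.49 to 2.01 for C1qc and -0.55 to 0.62 for C3. C3 was at -0.0074 with trimmed mean scaling and -0.036 with quantile normalization. For C3ar1, C5ar1, Itgb2 and C1ql1 the alternatives that could be fitted kept direction and side of the threshold. The size moved several-fold with the pseudocount for C3ar1, C5ar1 and Itgb2. C1ql1 was at -0.27 and -0.36 with pseudocounts of 5 and 0.1, and ran from -0.46 to -0.11 with 1 library left out. A minimum mean of 5 TPM removed all but the C1q chains and C1ql1.

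Relative to the microglia markers, FPKM gave -0.26 for C4b, -0.089 for C3ar1 and -0.17 for Itgam. A pseudocount of 5 gave -0.36, -0.18 and -0.28 for the same genes, and one of 0.1 gave 0.45 for Itgb2. The median of the markers gave -0.055 for C4b and -0.0018 for Itgam. C3ar1 ranged from -0.046 to 0.47 with 1 library left out.

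With the replicate block, 0 genes were called (1880 at an unadjusted p under 0.05), and the C1q chains had an adjusted p of 0.26 by limma. The labels do not say that a shared number pairs libraries, and deviations of same-numbered libraries correlated at -0.55, 0.19 and -0.41, so they were not treated as paired.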
